A study of Mus musculus with 88 samples.

Results

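The proteasome subunit genes were followed in mouse embryonic stem cells (ESCs) grown in different media and in embryonic fibroblasts. They were chosen by name, chromosome and a floor on their level: rows of the expression table whose symbol is Psm, a letter from a to g and a number, that do not lie on the X chromosome, and that reached 1 RPKM (reads per transcript length and library size) in at least 2 libraries. Of the 21942 loci in the table, 49 matched the name pattern and 46 were members. The 3 left out were Psmd10, which is X-linked, the thymus subunit Psmb11, which stayed at or below 0.0581 RPKM, and a second locus of Psmd5 at or below 0.542 RPKM. Just inside the floor, Psmb8 reached 1 RPKM in 9 of 26 libraries and Psmb9 in 17, and the other 44 members reached it in 26. The members comprised 7 alpha and 7 beta subunits of the constitutive 20S core, the germ cell alpha subunit Psma8, the immunoproteasome subunits Psmb8, Psmb9 and Psmb10, 6 ATPase and 11 non-ATPase subunits of the 19S cap, 2 assembly factors of the cap (Psmd5 and Psmd9), 4 of the core (Psmg1 to Psmg4), 4 activators (Psme1 to Psme4) and the inhibitor Psmf1. The 31 constitutive core and cap subunits are called the constitutive subunits below.

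The series holds 88 samples, of which 26 are RNA-seq libraries. The 62 bisulfite samples were not analysed here. In the B6 cross, an F1 of 129X1/SvJ and C57BL6, 16 libraries came from ESC lines at passage 3, with 2 XX and 2 XY lines in each of 4 media. These media were 2i (an inhibitor of the kinase MEK with an inhibitor of GSK3), t2i (2i with less of the MEK inhibitor), a2i (an Src kinase inhibitor replacing that of MEK) and serum, which holds the cytokine LIF. In the MSM cross, an F1 of 129X1/SvJ and MSM/Ms, 10 libraries comprised 4 ESC cultures in 2i (15 and 2, both XX, and 20 and 23, both XY), the serum cultures named S (8, which is XX, and 12, which is XY), line 15 moved from 2i to serum for 14 further passages (2i-S), 2 cultures of mouse embryonic fibroblasts (MEFs, lines 2 and 4, at passage 1) and MEFs derived from ESC line 15 (2i-MEF). No group carries a transgene or a deletion by its labels. Line 15 supplied 3 of the 10 libraries, and the sex labels of the 2 MEF cultures conflict, so the MEFs were given no sex. The B6 lines carry a letter for the medium and a number, such as c3, t3 and a3, and some numbers recur between media, as does the number 2 between a MEF and a 2i culture. The labels do not say whether a recurring number marks a shared origin, and p-values measure the spread between these cultures.

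The proteasome degrades proteins that carry ubiquitin chains. Its 20S core is a barrel of alpha and beta rings with 3 kinds of catalytic beta subunits, Psmb5, Psmb6 and Psmb7, and the 19S cap recognises, unfolds and feeds in the substrates. After interferon signalling, cells make Psmb8, Psmb9 and Psmb10 (LMP7, LMP2 and MECL-1), which replace Psmb5, Psmb6 and Psmb7 in newly built cores and change which peptides are made for presentation on MHC class I molecules. Psme1 and Psme2 form the PA28 activator, which is also raised by interferon, Psme3 forms a nuclear activator and Psme4 is the activator PA200.

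The promoters of 7 members are shown because the results below turn on these genes: the 3 immunoproteasome subunits, Psmb5 and Psmb6 as their constitutive counterparts, and the activator Psme1 and the assembly factor Psmg4, whose windows hold an interferon-type element. Each window runs from 250 bases before to 50 bases after the RefSeq start on the build GRCm38.p6 and is written 5′ to 3′ on the strand of the gene. RefSeq windows were held for 38 of the 46 members, and none for Psmb7. Capitals mark the matches of 4 motifs searched on both strands: a pair of GAAA with 2 free bases between them, the core of the interferon-stimulated response element (ISRE), TTCNNNGAA, the interferon gamma activated site (GAS), TGACNNNGC, the antioxidant response element, and CCAAT.
Psmb8 (chr17:34197945-34198244, plus strand): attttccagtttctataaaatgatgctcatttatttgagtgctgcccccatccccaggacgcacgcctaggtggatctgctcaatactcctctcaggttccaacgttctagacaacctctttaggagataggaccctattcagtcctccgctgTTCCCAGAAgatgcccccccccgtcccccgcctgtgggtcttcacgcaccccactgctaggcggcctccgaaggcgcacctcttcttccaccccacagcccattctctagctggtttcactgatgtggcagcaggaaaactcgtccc
Psmb9 (chr17:34187281-34187580, minus strand): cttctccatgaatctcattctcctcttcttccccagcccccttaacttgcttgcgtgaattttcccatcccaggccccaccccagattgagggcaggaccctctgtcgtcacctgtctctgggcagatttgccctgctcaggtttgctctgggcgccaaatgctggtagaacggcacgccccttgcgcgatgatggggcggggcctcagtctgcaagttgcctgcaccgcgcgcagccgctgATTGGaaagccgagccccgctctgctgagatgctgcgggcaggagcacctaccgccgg
Psmb10 (chr8:105938343-105938642, minus strand): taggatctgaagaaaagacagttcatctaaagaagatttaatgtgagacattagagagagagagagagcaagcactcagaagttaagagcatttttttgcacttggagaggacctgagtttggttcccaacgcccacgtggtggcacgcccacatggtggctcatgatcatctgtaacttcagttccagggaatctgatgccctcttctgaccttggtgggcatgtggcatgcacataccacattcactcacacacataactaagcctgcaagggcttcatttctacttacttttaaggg
Psmb5 (chr14:54617946-54618245, minus strand): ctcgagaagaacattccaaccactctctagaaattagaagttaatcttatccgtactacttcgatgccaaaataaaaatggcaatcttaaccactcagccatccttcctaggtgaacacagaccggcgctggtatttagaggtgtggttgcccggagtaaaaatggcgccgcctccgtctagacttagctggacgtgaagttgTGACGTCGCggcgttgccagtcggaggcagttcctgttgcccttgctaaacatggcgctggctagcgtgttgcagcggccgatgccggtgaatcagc
Psmb6 (chr11:70525107-70525406, plus strand): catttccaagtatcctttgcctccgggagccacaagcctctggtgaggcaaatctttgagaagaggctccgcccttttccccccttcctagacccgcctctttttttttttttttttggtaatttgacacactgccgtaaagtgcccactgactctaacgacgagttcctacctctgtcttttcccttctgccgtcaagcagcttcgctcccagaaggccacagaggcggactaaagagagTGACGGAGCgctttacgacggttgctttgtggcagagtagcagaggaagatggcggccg
Psme1 (chr14:55578244-55578543, plus strand): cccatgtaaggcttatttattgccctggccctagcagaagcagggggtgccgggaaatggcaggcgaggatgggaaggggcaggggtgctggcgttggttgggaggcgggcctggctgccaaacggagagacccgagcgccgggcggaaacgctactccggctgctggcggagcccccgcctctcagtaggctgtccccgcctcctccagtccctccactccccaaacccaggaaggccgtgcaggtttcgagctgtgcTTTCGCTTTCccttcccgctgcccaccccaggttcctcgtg
Psmg4 (chr13:34162714-34163013, plus strand): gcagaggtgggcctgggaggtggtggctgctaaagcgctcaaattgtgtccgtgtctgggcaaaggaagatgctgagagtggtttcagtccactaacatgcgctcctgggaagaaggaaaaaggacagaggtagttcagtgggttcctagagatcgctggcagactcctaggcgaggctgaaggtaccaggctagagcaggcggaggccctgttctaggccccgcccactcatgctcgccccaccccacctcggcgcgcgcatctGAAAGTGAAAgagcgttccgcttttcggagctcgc

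Psmb8 holds 1 GAS match, 97 bases before its start, and Psmb10 holds no match of the 4 motifs. In Psmb9 the match is a CCAAT on the opposite strand, and this window shares 275 bases with that of Tap1, the peptide transporter gene that is read from the same stretch in the other direction. Psmb5 and Psmb6 each hold 1 antioxidant response element, 47 and 9 bases before the start. In Psme1 and Psmg4 the ISRE lies 9 and 15 bases after the start. Over the 38 members with a window, 5 held the ISRE (Psmb3, Psmd4, Psmd9, Psme1 and Psmg4), which is 13.2% against 3.44% of the 32851 mouse promoter windows. The GAS was in 7.89% of the members against 8.3% of all windows, the antioxidant response element in 15.8% against 12.4%, and CCAAT in 31.6% against 37.4%. For each of the 4 motifs a member was counted if any of its windows held it, while the 32851 windows were counted singly. The shares of members and of windows are therefore unlike measures. These letters describe the windows and no binding was measured.

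The summed RPKM of a library ran from 624274 to 934309, with 11234 to 12558 genes at 1 RPKM or more, and the depth in reads is unknown. All 8 pluripotency markers fixed for the ESCs (Pou5f1, Nanog and others) reached 1 RPKM in each ESC library and none did in the MEFs, where all 16 fibroblast markers did. The B6 serum libraries also held all 16 fibroblast markers at 1 RPKM, summing to 885.5 to 1448 RPKM, against 1 to 4 of 16 and 3.60 to 13.6 RPKM in the other B6 media. This equals a fibroblast share of 7.64% to 14.7% of the MEF level in serum, 0.598% and 1.85% in the S lines, 1.40% in 2i-S, at most 0.526% in MSM 2i and at most 0.0346% in B6 2i, t2i and a2i. The same measure was 178.5% in the 2i-MEF, so its scale differs between fibroblast cultures and the shares are rough. Of the defining blood cell markers, Ptprc stayed at or below 0.0795 RPKM and Csf1r at or below 0.174 RPKM in all ESC libraries, and the blood list summed to 23.4 to 48.7 RPKM in B6 serum against 76.7 to 94.5 RPKM in B6 2i, most of it Laptm5. Cd53 on that list went the other way, at 0.916, 1.93, 0.801 and 1.05 RPKM in the 4 B6 serum lines and 0 in the other 12 B6 lines, beside 4.44 and 1.70 RPKM in the MEFs, and its part in the results against serum was not tested. In bulk RNA, fewer cells of a type and less RNA per cell cannot be told apart.

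The constitutive subunits were among the more abundant RNAs in every culture. Psmb4, a beta subunit without catalytic activity, had the highest mean RPKM at 872, followed by the catalytic Psmb6 at 451 and the alpha subunit Psma3 at 377. The lowest means were those of Psmb8 (2.09 RPKM), Psmb9 (2.30) and Psmb10 (14.4). All 46 members together took 0.893% to 1.33% of the summed RPKM of a library. The geometric mean over the 31 constitutive subunits ran from 200.1 to 279.9 RPKM in the ESC libraries, and it was 150.3 and 143.4 RPKM in the MEFs and 149.4 in the 2i-MEF. The MEF libraries thus lay below all 23 ESC libraries.

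**Figure D1:**
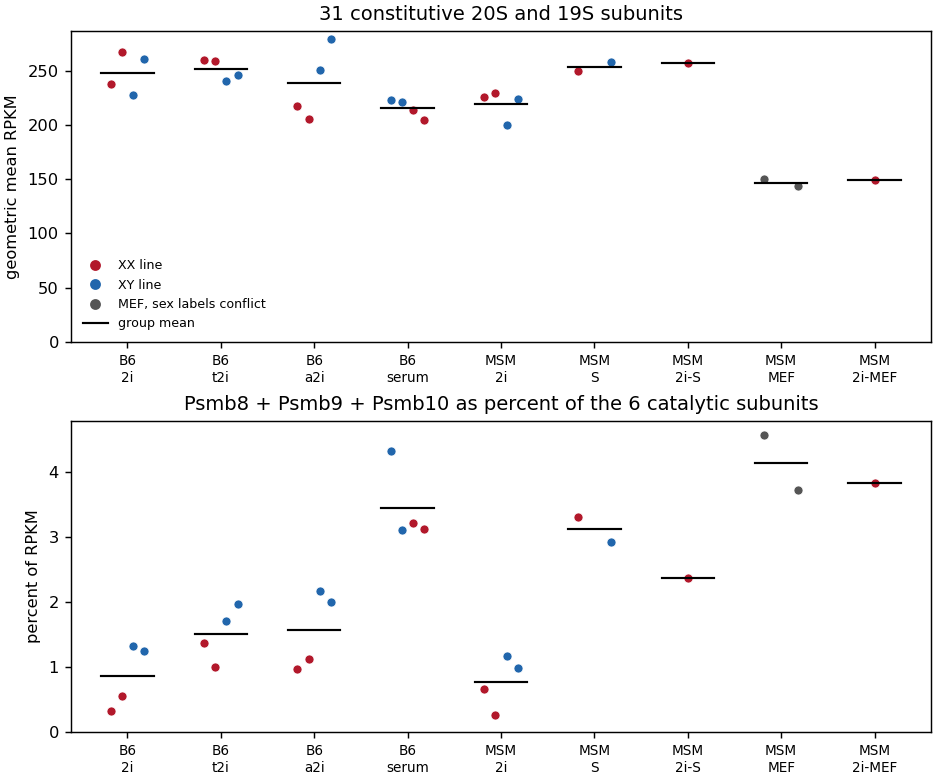
Upper panel, geometric mean RPKM of the 31 constitutive subunits in each of the 26 libraries by cross and culture. Lower panel, summed RPKM of Psmb8, Psmb9 and Psmb10 as a percentage of the summed RPKM of these 3 and of Psmb5, Psmb6 and Psmb7. Points are libraries coloured by sex and bars are group means. The 2i libraries of both crosses lie at 0.252% to 1.32%, and the serum, S, 2i-S and fibroblast libraries at 2.36% to 4.57%.

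Psmb8 was listed at 0 in the 2i libraries and Psmb9 was low in them, while Psmb10 was present in every culture. Psmb8, which replaces Psmb5, was listed at 0 in all 4 B6 lines in 2i. In t2i it was 0 and 0.12 RPKM (XX) and 0 and 0 (XY), and in a2i 0.244 and 0.231 (XX) and 0 and 0.0964 (XY). The 4 serum lines had 6.18 and 8.23 RPKM (XX) and 10.03 and 4.88 (XY), so that every serum line lay above every line of the other 3 media. In the MSM cross Psmb8 was listed at 0 in all 4 lines in 2i, and was at 7.42 RPKM in S line 8, 0.43 in S line 12, 5.66 in 2i-S, 4.80 and 2.86 in the MEFs and 3.22 in the 2i-MEF. The S lines differed from each other more than any pair of B6 serum lines.

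Psmb9, which replaces Psmb6, was low but present in every library. In the B6 cross it read 0.305 and 2.05 RPKM (XX) and 0.474 and 1.12 (XY) in 2i, 0.958, 0.884, 0.939 and 0.563 in t2i, and 1.53, 2.77, 0.971 and 1.27 in a2i. The serum lines had 4.21 and 5.84 (XX) and 7.77 and 4.78 RPKM (XY), above all 12 others. In the MSM cross it was 1.82, 0.633, 1.72 and 2.24 RPKM in 2i, 4.88 and 6.74 in S, 2.59 in 2i-S, 1.03 and 0.805 in the MEFs and 1.02 in the 2i-MEF. The fibroblasts, which held Psmb8 and Psmb10, thus had Psmb9 at the level of the 2i lines. The Psmb9 and Tap1 loci overlap in the table, and no source used here says whether reads were assigned by strand.

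Psmb10, which replaces Psmb7, was the most abundant of the 3 and differed between XX and XY lines. In B6 2i it was 2.98 and 4.38 RPKM in the XX lines and 13.8 and 13.9 in the XY lines. In t2i the values were 14.1 and 10.3 (XX) and 16.2 and 19.9 (XY), and in a2i 6.72 and 5.64 (XX) and 21.8 and 24.2 (XY). The serum lines had 21.1 and 18.2 (XX) and 26.6 and 20.6 RPKM (XY). The XY lines in a2i therefore lay within the range of the serum lines, while the XX lines in a2i lay above both XX lines in 2i and below every serum line. In the MSM cross Psmb10 was 4.19 and 1.65 RPKM in the XX 2i lines, 7.76 and 7.04 in the XY 2i lines, 23.2 and 24.1 in S, 18.2 in 2i-S, 17.6 and 14.1 in the MEFs and 15.1 in the 2i-MEF. Every 2i library of that cross lay below every other library of it.

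**Figure D2:**
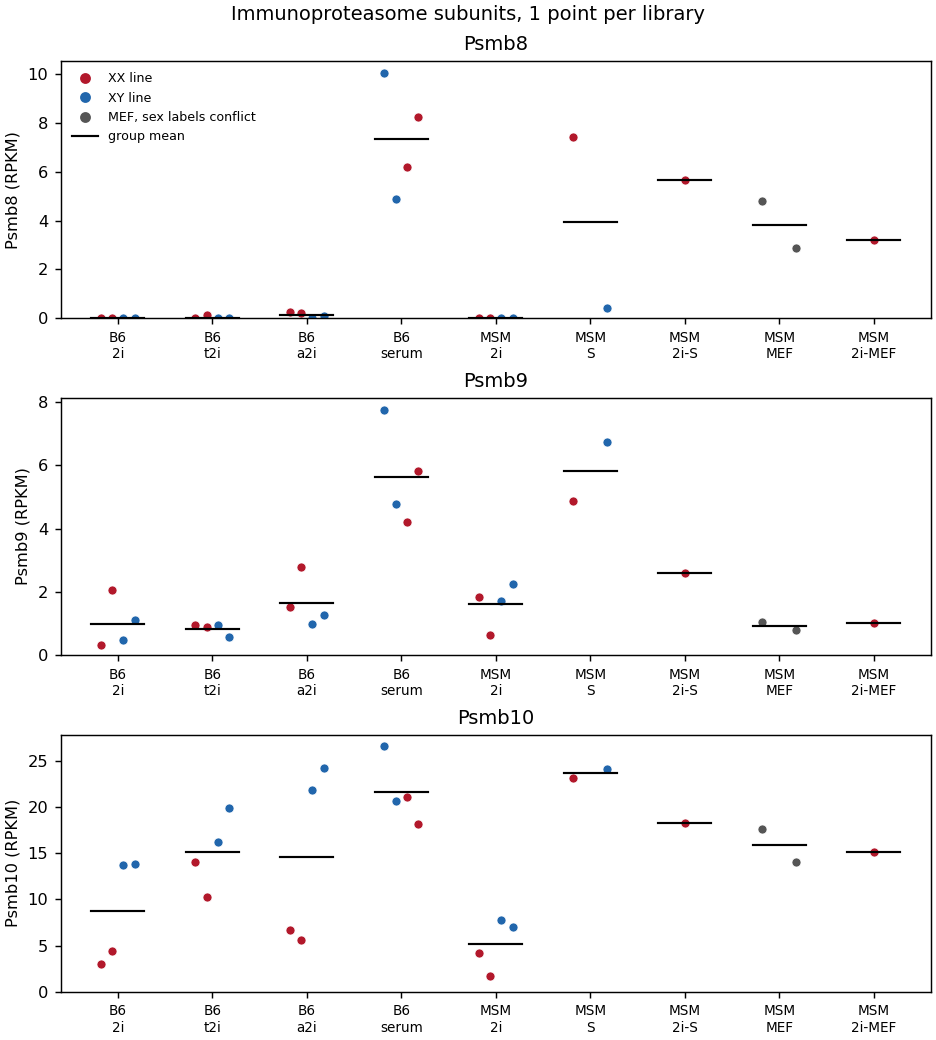
RPKM of Psmb8, Psmb9 and Psmb10 in each of the 26 libraries, by cross and culture, on linear axes. Points are libraries coloured by sex and bars are group means. Psmb8 is at 0 in the 8 lines in 2i, Psmb9 is highest in serum and S, and Psmb10 is lower in XX than in XY lines in 2i and a2i.

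Medium was compared first between 2i and serum in the B6 cross, with 4 lines each, by limma on log2(RPKM + 1), where a gene is called at a two-sided Benjamini-Hochberg adjusted p under 0.05 over all 13150 genes of the fit. For genes of low level this scale gives too small a fold change. Of the 46 members 19 were higher in 2i and 7 lower, beside 16.8% of all genes higher and 30.7% lower. All 3 immunoproteasome subunits were called lower: Psmb10 by a log2 fold change of -1.44 ± 0.14 (SE, adjusted p = 2.68e-06), Psmb9 by -1.80 ± 0.25 (adjusted p = 7.28e-05), and Psmb8, at 0 in every 2i line, with an adjusted p of 1.5e-08 and no fold. Psmb8 passed the filter of this fit only through the serum lines, so its p-value is no support for a fall. None of the 3 had an overlap between the 2i and the serum lines, though no share of all genes without overlap is given to set beside this. Multiplying the fibroblast share of each serum library by the MEF level gives 4.27% to 11.6% of its Psmb8, 1.32% to 2.83% of its Psmb9 and 5.72% to 11.5% of its Psmb10, and all 3 calls held after this amount was subtracted.

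Of the 31 constitutive subunits, 15 were not called, 15 were higher in 2i and 1, the cap subunit Psmd7, was lower, with a median log2 fold change of 0.21 beside -0.09 over all genes. The alpha ring had 5 of 7 higher, the beta ring 4 of 7, the ATPases 4 of 6 and the non-ATPases 2 of 11. The deubiquitinase Psmd14 had the largest rise of them (0.42 ± 0.13, adjusted p = 0.0147). Its lines in 2i read 196.4 and 256.2 (XX) and 135.0 and 206.0 RPKM (XY), against 136.3 and 124.9 (XX) and 156.9 and 160.5 in serum, and the groups overlap. Psmb3, a beta subunit without catalytic activity, rose by 0.39 ± 0.09 (adjusted p = 0.00294), with 337.8, 381.9, 441.8 and 493.0 RPKM in 2i above 307.8 to 317.0 in serum. Among the constitutive catalytic subunits Psmb5 was higher (0.27 ± 0.07, adjusted p = 0.00999), while Psmb6 (481.0 to 602.1 RPKM in 2i, 460.1 to 541.5 in serum) and Psmb7 (250.9 to 308.0 and 238.5 to 264.7) were not called.

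These small constitutive differences depended on scaling and on single lines. With quantile normalization the median over all genes went from -0.09 to 0.08, and the calls over all genes from 16.8% higher and 30.7% lower to 29.5% and 21.0%. It left 9 of the 31 constitutive subunits higher and 1 lower, with a median only 0.02 above that of all genes. Subtracting the fibroblast share left 6 higher and 1 lower, with no share of all genes after the subtraction given to set beside this. The number of constitutive subunits higher was 5 without the 2i line 4 or without the 2i line 6, and 9 without the serum line 16 or without the serum line 46. The 3 immunoproteasome calls held under every alternative run, and so did their direction, though Psmb8 passed each filter by its serum lines alone.

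Outside the rings, the core assembly factor Psmg4 (PAC4) had the largest rise of all members, 0.86 ± 0.14 (adjusted p = 0.000258). It read 70.1, 111.6, 99.3 and 108.3 RPKM in 2i and 49.7 to 54.7 in serum, with no overlap. Psma8, the alpha subunit of the spermatoproteasome of the testis, rose by 0.59 ± 0.14 (adjusted p = 0.00381), from 17.1 and 18.5 (XX) and 8.71 and 13.5 RPKM (XY) in serum to 16.8 and 23.7 (XX) and 22.4 and 24.1 (XY) in 2i. Another assembly factor, Psmg1, was higher by 0.35 ± 0.07 (adjusted p = 0.00192), while Psmg2, with which it pairs, was lower by a log2 fold change of -0.39 ± 0.09 (adjusted p = 0.00323). Among the activators Psme4 was higher over both sexes (0.25 ± 0.08, adjusted p = 0.0253), but only its XX lines were higher in 2i (80.4 and 69.6 RPKM against 45.3 and 39.7), and its XY lines were lower (35.3 and 38.1 against 42.9 and 48.3). Psme1 (-0.26 ± 0.07, adjusted p = 0.00587) and Psme3 (-0.22 ± 0.09, adjusted p = 0.0496) were lower. Psme2, the partner of Psme1, was not called, with 181.3 to 280.8 RPKM in 2i and 222.3 to 274.2 in serum. A near-identical copy, Psme2b, stands in the table as well, so the level of Psme2 is uncertain. Psmf1 (28.5 to 34.7 and 29.9 to 34.3 RPKM) was not called.

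Genes that work with these members were read from a pair of lists. Over all genes 30.7% were lower in 2i than in serum and 16.8% higher. Of the 22 antigen processing and interferon genes tested, 16 were lower and 0 higher, with a median log2 fold change of -0.92. Among them were Tap1 (-1.90), B2m, the light chain of MHC class I (-2.71), the ubiquitin-like Isg15 (-3.56) and the guanylate-binding protein Gbp2 (-3.05). Tap1 read 0.826 to 2.01 RPKM in 2i and 6.74 to 9.51 in serum. After the fibroblast share was subtracted 13 of the 22 were still lower, with no share of all genes after the subtraction given beside this. Of the 21 other proteasome and ubiquitin genes tested, 4 were higher and 4 lower, beside the 16.8% and 30.7% of all genes. The number higher was 2 without 2i line 4, 2i line 6 or serum line 17, and the number lower was 2 without serum line 17. Rps27a, which encodes ubiquitin fused to a ribosomal protein (0.48), and the transcription factor Nfe2l2 (0.44) were among the higher, and AI314180 (-0.50, adjusted p = 0.0117) was among the lower. Pomp, the maturation factor of the 20S core, and Nfe2l1, which drives proteasome genes when activity drops, were not called, with 0.04 and -0.00257 on the log2 scale.

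**Figure D3:**
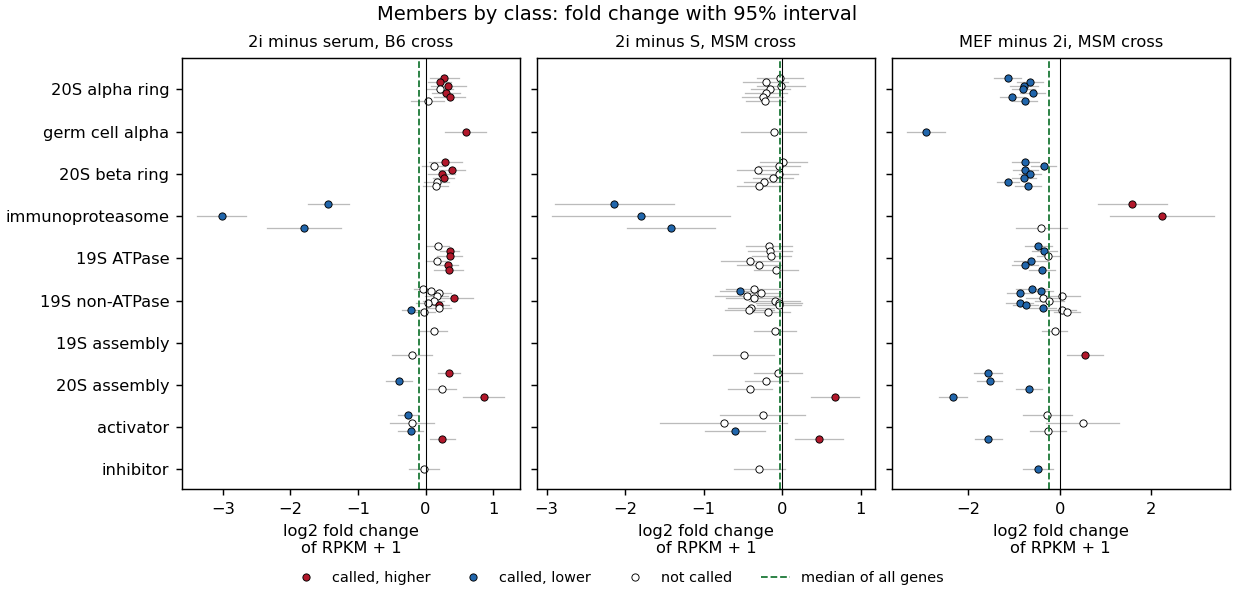
Log2 fold change of each member on log2(RPKM + 1), grouped by class, for 2i minus serum in the B6 cross, 2i minus S in the MSM cross and MEFs minus 2i in the MSM cross. Circles are members, filled where called, grey lines are 95% intervals and the dashed line is the median of all genes. The 3 immunoproteasome subunits lie below 0 in the first and second panels, and 2 of the 3 lie above 0 in the third. The position of Psmb8, listed at 0 in 2i, depends on the pseudocount.

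The other B6 media were compared with the same serum lines. In t2i 23 members were higher than in serum and 3 lower (15.3% and 28.5% of all genes), and the 3 lower ones were Psmb8, Psmb9 and Psmb10. Of the constitutive subunits 17 of 31 were higher, among them all 6 ATPases. In a2i 8 members were higher and 3 lower (12.4% and 25.0% of all genes), again with the 3 immunoproteasome subunits as the lower ones, and 6 of 31 constitutive subunits were higher. For both media Psmb8 passed the filter only through the serum lines, so its call is no support. Psmd14 was called in both (0.53 in t2i and 0.47 in a2i). Psma8 was 0.72 ± 0.14 higher in t2i (adjusted p = 0.00118) and was not called in a2i, where it read 17.1 and 21.4 (XX) and 9.80 and 10.7 RPKM (XY). Psmb10 was lower than in serum by a log2 fold change of -0.51 ± 0.14 in t2i (adjusted p = 0.00927) and of -0.77 ± 0.14 in a2i (adjusted p = 0.000759). Under quantile normalization the shares over all genes became 28.6% higher and 19.1% lower for t2i, and 25.4% and 17.0% for a2i, and 12 of 31 constitutive subunits were higher and 2 lower in t2i, and 6 higher and 2 lower in a2i. For a2i the count of members higher was 3 without line 3 in a2i, without serum line 16 or without serum line 46, 5 without line 4 in a2i, and 13 without line 1 in a2i. After the fibroblast share was subtracted, 16 members were higher and 3 lower in t2i, and 4 higher and 4 lower in a2i. The shares of all genes after this subtraction are not given to set beside these counts.

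Against 2i, Psmb10 was higher in t2i and no constitutive subunit was called. In t2i 3 members were higher than in 2i and 0 lower, beside 4.19% and 3.89% of all genes. Psmb10 rose by 0.93 ± 0.14 (adjusted p = 0.00181), with both XX lines in t2i above both XX lines in 2i and likewise for the XY lines. Psmg2 (0.43 ± 0.09, adjusted p = 0.0118) and Psme1 (0.24 ± 0.07, adjusted p = 0.0484) were the others. Psmb8 and Psmb9 were not called. Of the constitutive subunits 0 of 31 were called by limma and 0 of 31 had an unadjusted p under 0.05, beside 2984 of all 13150 genes. Without t2i line 1, t2i line 2 or 2i line 2 the count of members higher was 1. Without 2i line 3, 1 member was lower. Of the antigen processing and interferon genes 0 of 22 were called, and Tap1 and B2m had log2 fold changes of -0.15 and -0.04. Of the other proteasome and ubiquitin genes 1 was higher, the cap deubiquitinase gene Uchl5 (0.32 ± 0.07, adjusted p = 0.0144), and 1 was lower. The higher call was lost without t2i line 1 or t2i line 2. The lower call was lost on leaving out most of the single lines.

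In a2i, where Src and not MEK is inhibited, 3 members were higher than in 2i and 2 lower, beside 7.94% and 5.85% of all genes. Psmb10 rose by 0.66 ± 0.14 (adjusted p = 0.00699), Psme2 by 0.50 ± 0.15 (adjusted p = 0.0449) and Psme1 by 0.35 ± 0.07 (adjusted p = 0.00375). Psmg4 fell by 0.59 on the log2 scale (SE 0.14, adjusted p = 0.0143), with 51.2, 46.98, 68.8 and 96.2 RPKM in a2i, and Psma8 fell by 0.58 (SE 0.14, adjusted p = 0.0153). In the XY lines Psma8 read 9.80 and 10.7 RPKM in a2i and 22.4 and 24.1 in 2i, and its XX lines overlapped, but the difference between the sexes in this effect was not called (adjusted p = 0.0523). No constitutive subunit was called (0 of 31 by limma, 5 with an unadjusted p under 0.05, beside 3645 of all 13150 genes). The count of members lower was 0 without 2i line 6, 1 without 2i line 4, a2i line 4 or a2i line 1, and 4 without a2i line 3. In a2i 3 of 22 antigen processing and interferon genes were higher than in 2i and 0 lower, among them the MHC class I heavy chain H2-K1 (0.78) and the transcription factor Irf1 (0.53), and Tap1 was not called (0.18). Between a2i and t2i 0 members were higher and 1 lower (0.707% and 0.297% of all genes), Psma8, which was lower in a2i by a log2 fold change of -0.71 ± 0.14 (adjusted p = 0.0327). That call was lost without any 1 of the XX lines 1 and 3 or the XY lines 2 and 6 in t2i, or of XX line 4 and XY lines 1 and 3 in a2i.

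Sex was compared over the 4 B6 media, with 8 XX and 8 XY lines. Of the members 2 were higher and 9 lower in XX lines, beside 21.4% and 20.0% of all genes, so that the share lower was near that of all genes and the share higher below it. Psmb10 was lower in XX lines by a log2 fold change of -1.05 ± 0.10 (adjusted p = 3.06e-06). The cap ATPase Psmc5 was lower by -0.53 ± 0.05 (adjusted p = 1.82e-06). It read 195.9 and 196.1 RPKM (XX) against 264.3 and 292.6 (XY) in 2i, 206.4 and 193.9 against 267.3 and 284.1 in t2i, 161.5 and 152.2 against 287.6 and 300.0 in a2i, and 176.9 and 160.0 against 207.8 and 197.0 in serum, so that XX lay below XY in each of the 4 media. Psme1 was lower by -0.36 ± 0.05 (adjusted p = 6.17e-05) and the ATPase Psmc4 by -0.29 ± 0.05 (adjusted p = 0.000474). The other 5 lower in XX were Psmb3, Psmb5, Psmc3, Psmd4 and Psmg3. Psme4 was higher in XX lines by 0.54 ± 0.06 (adjusted p = 1.16e-05) and Psma8 by 0.42 ± 0.10 (adjusted p = 0.00416). Without the 2i line 6, 4 members were higher. Of the antigen processing and interferon genes 4 were higher and 4 lower in XX lines. The interferon gamma receptor chains went apart, with Ifngr1 at 0.90 and Ifngr2 at -0.95 on the log2 scale.

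Within single media the sexes were compared after the data had been seen. In 2i 2 members were higher in XX lines and 4 lower (11.9% and 13.2% of all genes), in t2i 1 and 2 (11.0% and 7.89%), in a2i 3 and 17 (16.8% and 11.5%), and in serum 0 and 0 (5.51% and 1.78%) by limma. In serum 4 members had an unadjusted p under 0.05, beside 2762 of all 13150 genes. The 17 lower in a2i included 11 of the 31 constitutive subunits. Psmb10 was lower in XX lines by -1.68 ± 0.20 in 2i (adjusted p = 7.26e-05) and by -1.74 ± 0.20 in a2i (adjusted p = 8.25e-05). In t2i its difference was -0.54 ± 0.20 (adjusted p = 0.0725) and in serum -0.25 ± 0.20 (adjusted p = 0.523), neither of them called. The XX against XY difference of Psmb10 was larger in 2i than in serum by -1.43 ± 0.28 (adjusted p = 0.00802). Psme4 went the opposite way. It read 80.4 and 69.6 (XX) against 35.3 and 38.1 RPKM (XY) in 2i and 45.3 and 39.7 against 42.9 and 48.3 in serum, and the sex differences differed by 1.11 ± 0.17 (adjusted p = 0.00208).

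In that test of 2i against serum by sex, 1 member was called higher and 1 lower (3.15% and 5.02% of all genes). All tests of medium effects by sex were added after the data had been seen. For t2i against 2i by sex, 0 members were called in either direction by limma (0.89% and 0.373% of all genes). An unadjusted p under 0.05 was found for 5 members, beside 1923 of all 13150 genes. For a2i against 2i by sex, 0 were higher and 3 lower (3.31% and 1.62% of all genes). These were the constitutive subunits Psmc2 (-0.65 ± 0.13, adjusted p = 0.0198), Psmb2 (-0.63 ± 0.15, adjusted p = 0.0358) and Psmc4 (-0.55 ± 0.14, adjusted p = 0.0448). Psmc2 shows the pattern: it read 156.5 and 162.0 (XX) and 138.6 and 145.1 RPKM (XY) in 2i, and 118.7 and 112.1 (XX) and 154.1 and 170.1 (XY) in a2i. Of the 31 constitutive subunits 29 had a negative value in this test, with a median of -0.40 beside 0.08 over all genes.

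**Figure D4:**
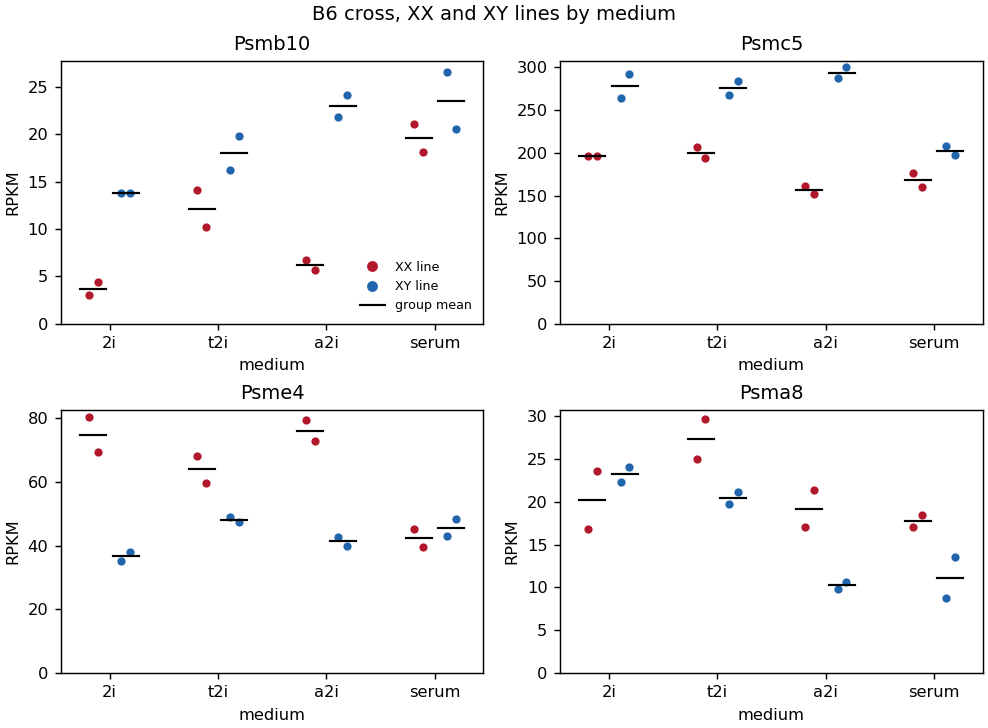
RPKM of Psmb10, Psmc5, Psme4 and Psma8 in the 16 B6 lines by medium and sex, on linear axes. Points are lines and bars are means of the 2 lines of a sex. Psmb10 is lower in XX than in XY lines in 2i, t2i and a2i, Psmc5 in all 4 media, and Psme4 is higher in the XX lines except in serum, where the sexes overlap.

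The MSM cross gave the 2i against serum comparison a second time with fewer lines, 4 in 2i and 2 in S. This fit took the sex difference as equal in 2i and S, whereas that of Psmb10 differed between 2i and serum in the B6 cross. Of the members 2 were higher in 2i and 5 lower, beside 8.36% and 8.67% of 13443 genes. The immunoproteasome subunits were called lower again: Psmb10 by a log2 fold change of -2.14 ± 0.33 (adjusted p = 0.00556), Psmb9 by -1.42 ± 0.24 (adjusted p = 0.0082), and Psmb8, at 0 in every 2i line, with an adjusted p of 0.0429 and no fold. Psmb8 passed the filter of this fit only through libraries outside 2i, so its p-value is no support for a fall. Psme3 (-0.60 ± 0.17, adjusted p = 0.0448) and the cap subunit Psmd11 (-0.54 ± 0.11, adjusted p = 0.0163) were also lower, and Psmg4 (0.67 ± 0.13, adjusted p = 0.0146) and Psme4 (0.47 ± 0.13, adjusted p = 0.0472) were higher. Psmg4 read 98.0, 103.5, 98.1 and 83.3 RPKM in 2i and 62.1 and 57.1 in S. Psma8, higher in 2i in the B6 cross, was not called here (-0.11 ± 0.18, adjusted p = 0.716), with 30.2 and 31.2 RPKM in S inside the 22.7 to 36.8 of the 2i lines. The constitutive subunits had 0 higher and 1 lower of 31 and a median of -0.21 beside -0.02 over all genes. Without S line 8 no member was called (0 higher and 0 lower), without S line 12 there were 0 higher and 3 lower, and without 2i line 15 or without 2i line 20 there were 1 higher and 3 lower. Without 2i line 2 or 2i line 23, 1 member was higher. Leaving out 1 library put the adjusted p of Psmb8 at 0.00729 to 0.33. Of the antigen processing and interferon genes 6 of 23 were lower in 2i, among them Tap1 (-2.12) and Isg15 (-2.16), and B2m was not called (0.02). The Psmb8 level of S line 8 stood beside a fibroblast share of 0.598%.

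In line 15 moved from 2i to serum, 0 members were called higher and 0 lower against the 2i lines by limma (0.811% and 0.409% of all genes), with a single 2i-S library assumed to vary like the other groups, and 7 members had an unadjusted p under 0.05. Psmb10 was 18.2 RPKM in 2i-S against 4.19 in line 15 in 2i, and Psmb8 was 5.66 against 0. Their adjusted p-values were 0.0708 and 0.149. Psmb9 was 2.59 RPKM, above the 4 lines in 2i at 0.633 to 2.24.

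Whether 2i differed from serum by the same amount in both crosses was tested over 14 libraries, with a sex difference per cross taken as equal in both media. Here 0 members had a more positive effect in the MSM cross and 6 a more negative one, beside 9.47% and 2.11% of 13330 genes. The 6 were Psmb3 (-0.70 ± 0.16, adjusted p = 0.0144), the core assembly factor Psmg3 (-0.65 ± 0.14, adjusted p = 0.00988), Psmc5 (-0.63 ± 0.15, adjusted p = 0.0164), Psmd11 (-0.62 ± 0.13, adjusted p = 0.00877), Psmd6 (-0.60 ± 0.16, adjusted p = 0.0302) and Psmc2 (-0.51 ± 0.15, adjusted p = 0.0396). All 31 constitutive subunits had a negative value, with a median of -0.40 beside 0.12 over all genes. No share of all genes with a negative value is given. The fibroblast share was 7.64% to 14.7% in B6 serum and 0.598% and 1.85% in the S lines. The counts after subtracting this share are not reported here. Psmb3 shows the 2 effects: it read 337.8 to 493.0 RPKM in 2i and 307.8 to 317.0 in serum in the B6 cross, and 245.5 to 278.3 in 2i and 293.5 and 357.2 in S in the MSM cross. Psmb10 and Psmb9 were not called, with values of -0.70 ± 0.48 and 0.38 ± 0.43 (adjusted p = 0.377 and 0.617). Psmb8 was at 0 in the 2i lines of both crosses, so it gives no comparison of the 2i effect here. Under quantile normalization the shares over all genes were 5.2% and 3.79% and 5 members were lower, and after median-ratio scaling 10 were lower. For the median-ratio scaling no shares of all genes are given. The number of members lower was 3 without S line 8, 1 without S line 12 and 11 without the B6 2i line 2.

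In 2i alone, the MSM and B6 lines differed at 9 of the 45 members tested, 2 higher and 7 lower in the MSM lines (11.3% and 8.96% of 12339 genes). The crosses may also differ in processing, and cross and processing cannot be told apart in this comparison. Psma5 was lower by a log2 fold change of -0.84 ± 0.11 (adjusted p = 0.00192), with 114.9, 114.1, 104.2 and 113.2 RPKM in the MSM lines and 173.5 to 247.7 in the B6 lines. Psma5 was also low in the MSM S lines (119.9 and 139.3 RPKM) beside B6 serum (148.4 to 177.2). Psmb3 (-0.65 ± 0.10, adjusted p = 0.00372), Psmc1 (-0.49 ± 0.10, adjusted p = 0.0117) and Psmb6 (-0.48 ± 0.10, adjusted p = 0.0144) followed, and Psmd4, Psmd7 and Psmg3 were the rest. Psmg2 (0.63 ± 0.11, adjusted p = 0.00714) and Psme4 (0.59 ± 0.11, adjusted p = 0.00821) were higher. Psmb8, at 0 in all 8 lines, was under the filter, and Psmb9 and Psmb10 were not called. The number of members lower was 2 without the B6 2i line 6, 3 without the B6 2i line 4 or the MSM line 20, and 4 without the MSM line 23 or the B6 2i line 2.

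Most members were called between fibroblasts and ESCs, as were most of all genes, and nearly all the called members were lower in fibroblasts. Against the 4 MSM lines in 2i, the 2 MEF cultures had 3 members higher and 32 lower, beside 29.9% and 41.2% of all genes. All 7 alpha and all 7 constitutive beta subunits were lower, with 5 of 6 ATPases, 6 of 11 non-ATPases and all 4 core assembly factors, and the median of the 31 constitutive subunits was -0.64 beside -0.23 over all genes. Psma8 had the largest fall (-2.92 ± 0.18, adjusted p = 3.64e-06), from 22.7 to 36.8 RPKM in the 2i lines to 2.92 and 2.86 in the MEFs. Psmg4 fell to 20.1 and 16.5 RPKM (-2.33 ± 0.13, adjusted p = 2.6e-06), Psmg1 to 31.2 and 29.7 (-1.57 ± 0.13, adjusted p = 1.78e-05) and Psme4 to 25.1 and 27.8 (-1.56 ± 0.13, adjusted p = 1.89e-05). Among the catalytic subunits Psmb6 fell from 365.4 to 419.9 RPKM to 185.6 and 172.9 (-1.13 ± 0.11, adjusted p = 3.3e-05). The groups of these genes did not overlap.

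The 3 members higher in the MEFs were Psmb10 (1.58 ± 0.33, adjusted p = 0.00268), Psmb8 (adjusted p = 0.00364, at 0 in the 2i lines, no fold) and the cap assembly factor Psmd9 (0.55 ± 0.17, adjusted p = 0.0193). Psmb8 passed the filter only through libraries outside 2i, so its p-value is no support. Psmb9 was not called (-0.40 ± 0.24, adjusted p = 0.172). With median-ratio scaling, under which the all-gene median was -0.04 and not -0.23, 4 members were higher and 25 lower. The shares of all genes under that scaling are not given. Without it, 29.9% of all genes were higher and 41.2% lower in the MEFs. Of the antigen processing and interferon genes 19 of 23 were higher and 1, Bst2, was lower. B2m was at 4.23 and Tap1 at 2.04 on the log2 scale. Of the other proteasome and ubiquitin genes 4 were higher and 9 lower, with Nfe2l1 (0.79 ± 0.22, adjusted p = 0.0121) among the higher and Pomp (-0.55 ± 0.11, adjusted p = 0.00218) among the lower. Without MEF line 2 the number higher was 2. MEF line 2 held blood markers that line 4 held less of, Ptprc at 0.977 and 0.292 RPKM and Csf1r at 3.16 and 0.809 RPKM, and also the higher Psmb8 (4.80 and 2.86 RPKM), and their part in the result was not tested. In the 2i-MEF Ptprc was 0.0561 and Csf1r 0.455 RPKM, with Psmb8 at 3.22 and Psmb10 at 15.1 RPKM. Between the single 2i-MEF library and the MEFs, limma called no member and few of all genes.

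The immunoproteasome subunits were a small part of the catalytic subunit RNA in every library. Psmb8, Psmb9 and Psmb10 made up 0.327% and 0.556% of the summed catalytic RPKM in the XX lines and 1.32% and 1.24% in the XY lines in B6 2i. In t2i it was 1.36% and 0.992% (XX) and 1.71% and 1.98% (XY), and in a2i 0.971% and 1.12% (XX) and 2.16% and 2.01% (XY). Serum lines had 3.12% to 4.34%, above all 12 other B6 lines. In the MSM cross the share was 0.661%, 0.252%, 1.17% and 0.983% in 2i, 3.32% and 2.93% in S, 2.36% in 2i-S, 4.57% and 3.72% in the MEFs and 3.83% in the 2i-MEF. The highest share was thus that of MEF line 2, and the lowest that of the MSM XX line 2 in 2i. Psma8 stood at 5.54% to 6.29% of the sum of Psma7, the alpha subunit it replaces, and Psma8 in B6 2i, at 5.40% to 6.28% in t2i, at 5.23% and 6.35% (XX) and 2.63% and 2.18% (XY) in a2i and at 5.29% and 5.31% (XX) and 2.28% and 3.47% (XY) in serum. The MSM values were 6.55% to 9.00% in 2i, 7.23% and 7.51% in S, 6.89% in 2i-S and 1.34% to 1.46% in the fibroblasts, so the S and 2i-S values lay within those of 2i.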

How the data were processed

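The deposited table holds RPKM values per gene for 26 RNA-seq libraries, made by the authors. Per the labels' protocols, RNA was prepared with a stranded mRNA kit. The submitters' processing notes name cutadapt 1.9.1, TopHat2 2.1.0, Bowtie2 2.2.5, Cufflinks 2.2.1 and the build mm10. No source used here says how reads were assigned to genes. RPKM carries no read counts, so precision per library is unknown, and no count model was used. Library values were taken as deposited.

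Tests were run with limma 3.58.1 in R 4.3.3 on log2(RPKM + 1), with genes at 1 RPKM or more in at least 2 libraries of the fit, a mean-variance trend, two-sided tests and Benjamini-Hochberg adjustment over all genes of the fit (threshold 0.05). One fit held the 16 B6 libraries, another the 10 MSM libraries, and further fits the 14 ESC libraries in 2i and serum or S and the 8 lines in 2i. The B6 fit and the fit of the 2i lines used a mean per group and sex. The MSM fit used a mean per culture and a shared XX term among its ESCs. The 14-library fit used a mean per cross and medium and an XX term per cross. The scripts were tested on simulated data. Tables were made with pandas 2.3.3 and numpy 2.4.6 under Python 3.11.15, and figures with matplotlib 3.10.9. The fibroblast share of a library is its fibroblast marker level relative to the MEFs. Alternatives were a pseudocount of 0.1, no filter or a minimum of 5 RPKM, quantile and median-ratio scaling, smaller fits, leaving out single libraries and subtracting the fibroblast share.

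Members and gene lists were chosen with earlier results of these data known. The contrasts of sex within a medium, the tests of medium effects by sex, the replicate block and the subtraction for 2i-S were added after seeing the data. Genes named were the catalytic subunits, activators, Psmf1, Psma8, Psmb11, the 3 highest and 3 lowest members by mean, up to 4 members called each way with the largest change per comparison, and from the other lists Pomp, Nfe2l1, Tap1 and B2m with up to 3 called each way. Some genes under this rule are not reported here. Others named were chosen after their values were seen. Promoter windows came from RefSeq.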

Additional observations from a re-analysis of the deposited data

Results flagged for a closer look

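In groups of 4 lines, 3 of 68 combinations of a named member and a culture had a line far from the other 3 (gap over range above Dixon's critical value at 95%), where chance gives about 1 in 20. Psmb8 was 0.12 RPKM in the B6 t2i XX line 3 and 0 in the others. With the others at 0, any value above 0 is flagged, so the chance rate does not apply to Psmb8 here. Psme2 was 222.3 RPKM in the B6 serum XY line 16 and 269.3 to 274.2 in the others. Psmf1 was 25.6 RPKM in the MSM 2i XX line 15 and 29.4 to 29.6 in the others.

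The effect of 2i against serum differed between the crosses, as MSM minus B6 on the log2 scale, for Psmb3 (-0.70), Psmg3 (-0.65), Psmc5 (-0.63), Psmd11 (-0.62), Psmd6 (-0.60) and Psmc2 (-0.51). It differed between XX and XY lines for Psmb10 (-1.43) and Psme4 (1.11). The effect of a2i against 2i differed between XX and XY lines for Psmc2 (-0.65), Psmb2 (-0.63) and Psmc4 (-0.55). The tests by sex were added after the data had been seen.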

How the results depend on the processing

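Of 196 counts of called members under an alternative, 162 stayed within 1.5 times the reported count, and of 1469 values of single genes 1311 kept their direction and side of the threshold, 154 lost the call, 2 gained it and 2 reversed. The immunoproteasome values against B6 serum kept both in 144 of 144, though Psmb8 passed each filter by its serum lines alone. In the difference between crosses of the 2i against serum effect, the Psmb8 log2 fold change (1.22), which with 0 in every 2i line rests on serum and S alone and on the pseudocount, was -0.05666 without S line 12 and 2.50 without S line 8, and the Psmb9 log2 fold change (0.38) was -0.05871 under quantile normalization. Called members in 2i against serum came to 16 after fibroblast subtraction, those in a2i against t2i to 0 with no filter, with quantile normalization and with the 8 libraries alone, and those of the cross difference to 10 after median-ratio scaling. Counts here and with a library left out stand without the shares of all genes. Leaving out 1 library gave 14 to 28 for 2i against serum, 1 to 3 for t2i and 2 to 6 for a2i against 2i, 20 to 25 for t2i and 6 to 16 for a2i against serum, 0 to 1 for a2i against t2i and 9 to 12 for XX against XY. In the MSM cross it gave 0 to 6 for 2i against S, 0 to 0 for 2i-S against 2i, 25 to 35 for MEFs against 2i and 0 to 0 for 2i-MEF against MEFs. It gave 1 to 11 for the cross difference and 4 to 9 for the 2i lines of the crosses. The cause of these shifts was not tested. Only t2i and 2i share 2 or more line numbers within a sex. For these 3 pairs the number as a replicate block gave 0 called members, and the same 6 libraries without the block also gave 0. Over 12094 genes the deviations of same-numbered libraries from their group mean correlated at -0.269 for XX line 3 and 0.00571 for each XY pair (2 and 6). With 2 lines in a group the deviations mirror each other, so the XY pairs necessarily give the same value. These correlations cannot tell whether same-numbered libraries share an origin. No paired analysis was possible because the other groups compared share fewer than 2 numbers.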
